A study of Mus musculus with 8 samples.

Results

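The histone cluster genes are the genes named Hist1h to Hist4h, which in the mouse lie in a few dense arrays and encode the linker histone H1 and the core histones H2A, H2B, H3 and H4. All genes of the deposited gene table whose symbols begin with Hist1h, Hist2h, Hist3h or Hist4h were taken, 67 of 31053 genes. Of these, 6 encode H1, 18 encode H2A, 18 encode H2B, 12 encode H3 and 13 encode H4. The Hist1 cluster on chromosome 13 holds 54 of them, the Hist2 cluster on chromosome 3 holds 10, the Hist3 genes on chromosome 11 are 2, and Hist4h4 lies alone on chromosome 6.

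RNA was measured in single cells of the dentate gyrus of 8-week-old male Nestin-GFP mice, in which GFP is driven by regulatory elements of the gene for nestin, a filament protein of neural stem cells and also of vessel cells. Sham-craniotomized mice (Control) were compared with mice given a unilateral controlled cortical impact (TBI), both 15 days after surgery and both carrying the same transgene. GFP-positive living cells were sorted, so the GFP signal set which cells entered the data. Nestin RNA itself was low in some of them, such as oligodendrocytes. The sample labels list 4 animals per group, the study's methods give larger numbers that differ between the groups, and the cells of a group were pooled into 1 library, so there were no replicates, no test was made, and every interval below is a 95% interval of counting error only.

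Replication-dependent histone genes are transcribed in S phase, when new DNA is packed into nucleosomes. Their mRNAs mostly carry no poly(A) tail and end shortly after a conserved stem-loop that is bound by the stem-loop binding protein SLBP, which directs their processing, translation and decay. The libraries were primed on poly(A) near the 3′ end of transcripts, so that a transcript without a tail is captured poorly, whereas some histone cluster genes can also be polyadenylated downstream of the stem-loop and so be captured outside S phase.

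The stem-loop is shown first because it separates annotated transcripts that stop beside it from those that run on. A 16-base histone stem-loop pattern, searched on the transcript strand, was found after the coding sequence in 46 of the 67 genes in GENCODE M21 transcripts of the build GRCm38, the build of the count tables. For all other genes it was counted per transcript and anywhere in the sequence, in 14 of 58725 coding transcripts (0.0238%). Of the coding transcripts of the histone cluster genes, 48 of 72 held it after the coding sequence. Only 8 different stem-loops occurred, and the most frequent was shared by 26 genes. In the lines below the stem-loop is in capitals and the flanking transcript bases are in lower case.
Hist1h2ap: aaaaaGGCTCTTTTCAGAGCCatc
Hist1h2ab: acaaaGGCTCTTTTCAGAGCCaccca
Hist1h3c: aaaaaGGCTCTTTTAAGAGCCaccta
Hist1h4d: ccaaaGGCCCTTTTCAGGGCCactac
Hist1h1c: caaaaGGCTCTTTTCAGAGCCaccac
Hist3h2a: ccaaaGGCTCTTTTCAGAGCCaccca
Hist3h2ba: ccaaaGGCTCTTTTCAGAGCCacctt
The annotated transcript ended 3 bases after the stem-loop in Hist1h2ap, 11 bases after it in Hist1h2ab and 74 bases after it in Hist1h3c. It ran on for 169 bases in Hist3h2ba, 770 in Hist1h4d, 840 in Hist1h1c and 1643 in Hist3h2a. The letters of the stem-loop were the same in Hist1h2ap, Hist1h2ab, Hist1h1c, Hist3h2a and Hist3h2ba, although these genes differed widely in level between cell types, as described further on.

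Promoters were compared because the classes differ in known control elements, the H1 box of linker histone genes (AAACACA) and the octamer of H2A and H2B genes (ATTTGCAT). RefSeq promoters of GRCm38.p6, 300 bases from 250 before to 50 after the start, were found for 62 of the 67 genes, and both strands were searched. The H1 box occurred in 5 of 6 H1 promoters (83.3%) and in 8.22% of 27025 promoters of all genes. The octamer occurred in 7 of 18 H2A promoters (38.9%) and 7 of 16 H2B promoters (43.8%), against 1.97% of all promoters, and in 0 of the 6 H1, 10 H3 and 12 H4 promoters. The counts of H2A and H2B are not independent. Some of these genes lie head to head with overlapping promoters, so that 1 site is counted in both classes. The octamer of Hist1h2ae, for example, is also that of Hist1h2bg. CCAAT occurred in 53 of the 62 promoters (85.5%) against 41.1% of all, but in only 3 of 12 H4 promoters. TATAAA occurred in 35 of the 62 (56.5%) against 15.7%. Each word was counted for itself, also where matches overlapped, and a match is a description of the letters and not of binding. The 150 bases before the start are given for an H1 and an H2A gene that were counted almost only in cycling cells and for an H1 and an H2A gene that were counted in every cell type, with the words above in capitals on either strand.
Hist1h1b, chr13:21780626-21780775, minus strand: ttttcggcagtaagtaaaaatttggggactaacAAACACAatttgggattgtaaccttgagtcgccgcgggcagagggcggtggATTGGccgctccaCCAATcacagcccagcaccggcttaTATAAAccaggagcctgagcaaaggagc
Hist1h1c, chr13:23738657-23738806, plus strand: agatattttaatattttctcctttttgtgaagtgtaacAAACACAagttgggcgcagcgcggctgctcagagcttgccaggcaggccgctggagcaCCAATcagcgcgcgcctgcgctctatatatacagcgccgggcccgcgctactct
Hist1h2ae, chr13:23571221-23571370, minus strand: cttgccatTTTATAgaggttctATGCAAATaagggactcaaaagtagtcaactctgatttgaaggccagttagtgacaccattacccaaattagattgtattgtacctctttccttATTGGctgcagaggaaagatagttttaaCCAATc
Hist3h2a, chr11:58954535-58954684, plus strand: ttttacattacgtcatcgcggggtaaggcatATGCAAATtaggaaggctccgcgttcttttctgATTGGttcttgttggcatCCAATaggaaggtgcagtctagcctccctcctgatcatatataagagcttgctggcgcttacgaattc
Both H1 promoters held the H1 box and CCAAT, and both H2A promoters held the octamer and CCAAT. The exact word TATAAA was found in Hist1h1b, 28 bases before the start, and in Hist1h2ae on the other strand, 142 bases before it. The match in Hist1h2ae is the same site as the TATAAA that lies 43 bases before the start of the neighbouring Hist1h2bg, on the strand of that gene. Neither Hist1h1c nor Hist3h2a held that exact word, but both held the letters TATATA shortly before the start. Such variants were not counted, so no difference in such elements can be read from these promoters. Among genes called further on as at least 4-fold higher in cycling progenitors than oligodendrocytes, 16 of 25 promoters held TATAAA (64.0%). Among those tested and not called it was in 1 of 7 (14.3%), while CCAAT was in 24 of 25 and 5 of 7. Most called genes passed the count limit through cycling cells, and a match can be a site of a neighbouring gene, so these counts are a description only.

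After filtering, 3048 Control and 5033 TBI cells remained, with medians of 6933 and 5676 UMIs (unique molecular identifiers, tags that mark single captured RNA molecules). The cells were clustered without the histone cluster genes, and levels are given as CPM, the UMIs of a gene in a population's cells per 1000000 UMIs counted there without Malat1. A molecule gives 1 UMI near its 3′ end whatever its length, so levels were not divided by gene length. Clusters named cycling progenitors by their markers held 158 Control and 183 TBI cells, with medians of 19109 and 12867 UMIs. Their Mki67 level was 860 CPM in Control and 752 CPM in TBI, and that of Top2a 1266 and 1024 CPM, whereas oligodendrocytes of both libraries together held 2.86 CPM of Mki67 and 1.12 CPM of Top2a. A further 178 cells stood nearest to the cycling progenitors but stayed an unnamed cluster, in which 12 cells were called doublets. Among its leading genes the RG-like markers Neurog2 and Hes5 outnumbered the cycling marker Tpx2, beside other genes such as Cenpa and Ccnb2.

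The 67 genes gave 81827 UMIs in all kept cells, 0.154% of all UMIs without Malat1. At least 10 UMIs were counted for 57 genes and at least 100 for 38, and Hist1h2aa was the only one without a UMI. H2B genes gave 36287 UMIs, H1 genes 20383, H2A genes 17356, H4 genes 5734 and H3 genes 2067. Hist1h2bc, Hist3h2ba, Hist1h1c and Hist3h2a together made up 66.4% of the UMIs. The coding sequences are near copies of one another, which limits what can be assigned to a single gene. In the last 400 bases of their transcripts, 47 of the 67 genes shared at least 1 stretch of 90 bases with another gene, and 28 shared at least 50% of such stretches, so reads there could not be assigned to 1 gene and the counts of these members are uncertain. Hist1h2ap, Hist1h1e and Hist2h3c1 were among those that shared all of their stretches with other genes. Exons of Hist1h1e overlapped Hist1h2be by 450 bases on the same strand and those of Hist3h2a overlapped Trim17 by 708 bases.

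The summed level of the histone cluster genes was highest in cycling progenitors, at 4838 CPM in Control (interval 4758 to 4919) and 3376 CPM in TBI (3302 to 3451). Neuroblasts and immature neurons came next among the named populations, at 2097 CPM in Control (2061 to 2134) and 2068 CPM in TBI (2037 to 2099). Radial glia-like (RG-like) cells held 930 CPM in Control and 847 CPM in TBI. The RG-like cluster led by Neurog2, Ung, Cdca7, Hells and Mcm2 held 985 and 906 CPM, and the other held 896 and 815 CPM. Apart from Neurog2, the named leading genes are among the S-phase genes scored further on. Oligodendrocytes held 887 and 968 CPM, and astrocytes 891 and 978 CPM. RG-like cells, oligodendrocytes and astrocytes thus lay within a narrow range, and their order differed between the libraries. Reln neurons held 777 and 559 CPM, oligodendrocyte precursors 555 and 598 CPM, and endothelial cells 559 and 518 CPM. The lowest levels were those of mural cells, at 398 and 406 CPM, and microglia, at 301 CPM (228 to 390) and 330 CPM (279 to 388), and the intervals of the microglia overlapped between the libraries. The unnamed cluster stood between cycling progenitors and neuroblasts, at 2970 CPM in Control and 2518 CPM in TBI.

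**Figure D1:**
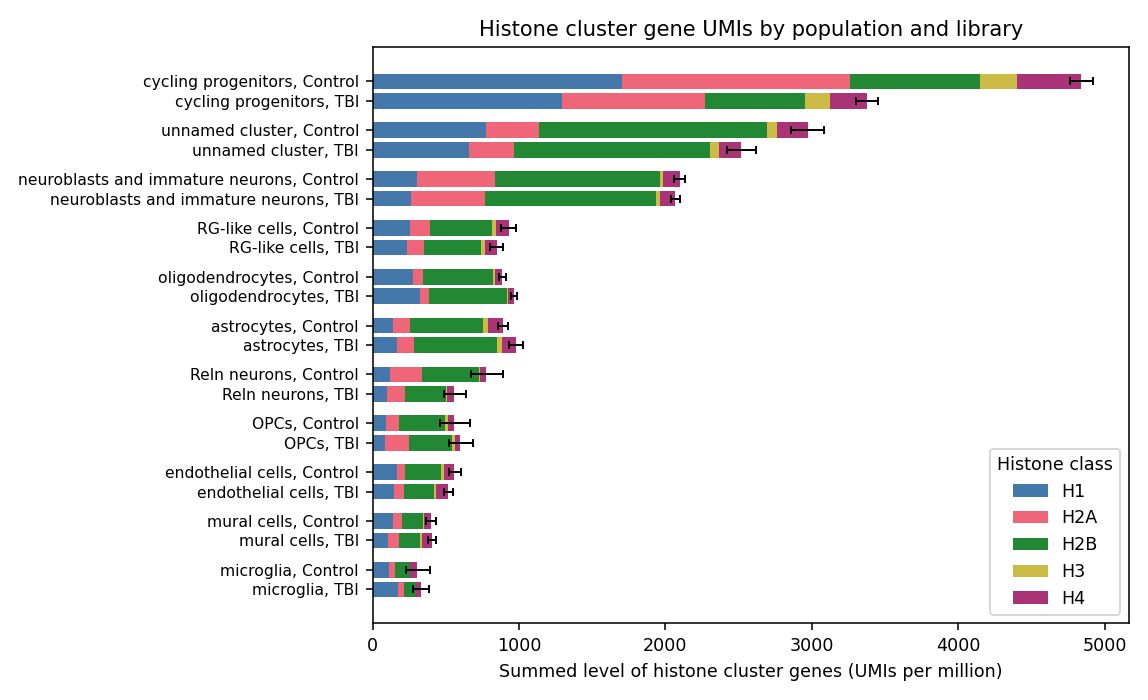
Summed level of the histone cluster genes in CPM (x axis) for each population in the Control and the TBI library, with bars divided by histone class and whiskers giving the 95% Poisson interval of the sum. The bar of cycling progenitors is longest in both libraries (4838 and 3376 CPM) and has the largest H1 and H2A parts, while H2B makes up most of the bar in neuroblasts and oligodendrocytes.

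The classes made different shares of these sums. In cycling progenitors H1 genes gave 1702 CPM in Control and 1296 in TBI, H2A genes 1556 and 973, H2B genes 889 and 684, H4 genes 439 and 251, and H3 genes 252 and 172. In neuroblasts and immature neurons H2B genes led, at 1127 CPM in Control and 1171 in TBI, followed by H2A genes at 532 and 506. In oligodendrocytes H2B genes gave 482 and 532 CPM and H1 genes 279 and 322 CPM, and the other classes at most 64.2 CPM each. The neuroblast clusters ranged from 1785 to 2464 CPM in Control and from 1736 to 2427 CPM in TBI. Among astrocytes 1 cluster of 308 cells, led by Chchd10 and Mt3, held 1558 CPM in Control and 1854 CPM in TBI, of which H2B genes gave 1007 and 1233 CPM, at a median of 1625 UMIs per cell.

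**Figure D2:**
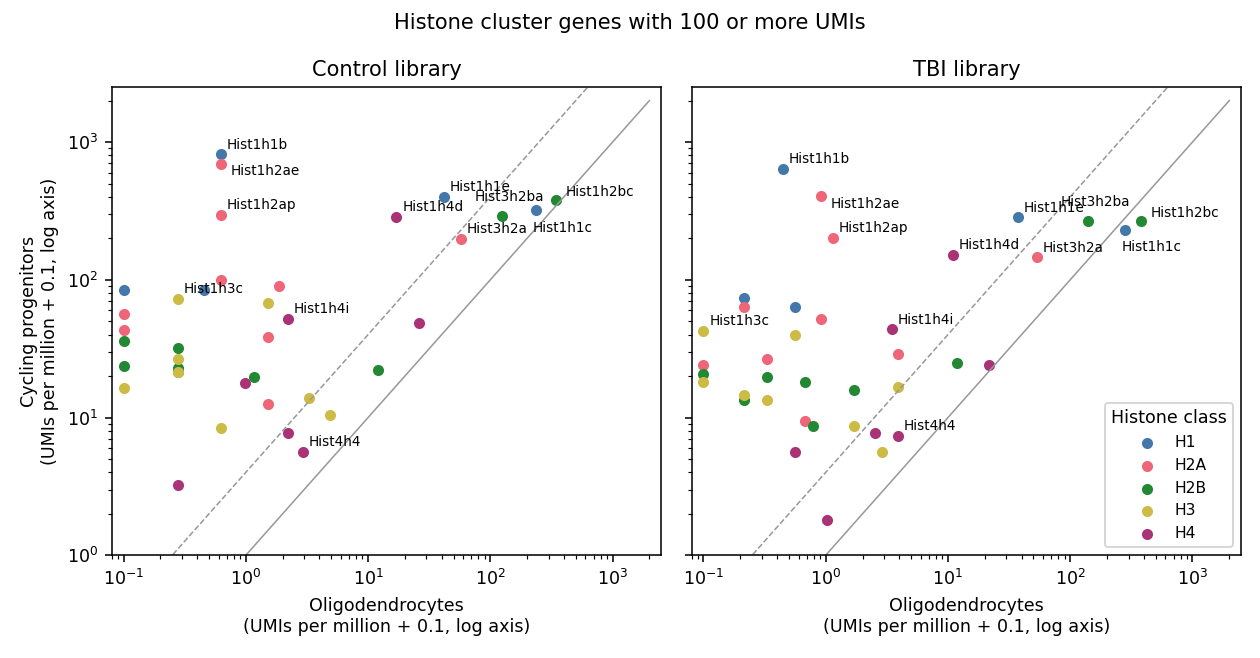
Level of each histone cluster gene with 100 or more UMIs in oligodendrocytes (x axis) and cycling progenitors (y axis), in CPM plus 0.1 on log axes, 1 panel per library, coloured by histone class; the solid line marks equal levels and the dashed line a 4-fold higher level in cycling progenitors. Hist1h1b, Hist1h2ae and Hist1h2ap lie far above the dashed line, and Hist1h1c, Hist1h2bc and Hist3h2ba lie below the dashed line in both libraries.

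Of the 67 genes, 28 were called higher in cycling progenitors than in oligodendrocytes, a non-dividing type. Of 37 genes with at least 20 UMIs over cycling progenitors and oligodendrocytes in each library, these 28 (75.7%) were at least 4-fold higher in both libraries, where 15.1% of all 11270 genes so tested were, and 0 were 4-fold lower. The median log2 ratio, averaged over the libraries, was 5.09 for the members and 0.37 for all genes tested. A gene that reached the limit only through its level in cycling cells had to differ. Most of the 28 had 3 or fewer UMIs in oligodendrocytes in at least 1 library, so their call was largely fixed by the limit. The 75.7% thus describes the genes tested and is no support for a difference. It does not extend to the members that did not reach the limit, and the counts by class and against other types carry the same caveat. The count was 17 at a minimum of 50 UMIs and 7 with cells thinned to 2000 UMIs, settings under which fewer genes could be tested. By class, 4 of 5 H1 genes, 8 of 9 H2A, 7 of 10 H2B, 7 of 8 H3 and 2 of 5 H4 genes were called. Against neuroblasts and immature neurons 25 of 41 genes were at least 4-fold higher in cycling progenitors (4.75% of all genes tested), against astrocytes 23 of 37 (9.09%), and against RG-like cells 20 of 37 (1.98%).

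Among the H1 genes, Hist1h1b, which encodes H1.5 (743 bases, chr13:21779883-21780625), was the member with the highest level in cycling progenitors, at 814 CPM in Control and 642 CPM in TBI. Oligodendrocytes held 3 UMIs of Hist1h1b in each library, 0.529 CPM in Control and 0.347 CPM in TBI. The ratio was 1538 in Control (interval 526 to 7465) and 1850 in TBI (632 to 8981). In RG-like cells Hist1h1b reached 36.9 CPM in Control and 36.1 in TBI, and in neuroblasts and immature neurons 5.82 and 7.78 CPM. When each cell was thinned to 2000 UMIs, 53.5% of 340 cycling progenitors had a UMI of Hist1h1b (exact binomial interval 48.1 to 58.9%), 18 of 257 RG-like cells, 1.37% of 1603 neuroblasts and immature neurons and 0.0641% of 1561 oligodendrocytes. The shares without thinning were 77.4%, 25.2%, 4.41% and 0.359%, at median depths of 15364 UMIs in cycling progenitors and 8802 in oligodendrocytes. Hist1h1a, which encodes H1.1, was also highest in cycling progenitors, at 84.2 CPM in Control and 74.3 CPM in TBI cycling progenitors. In oligodendrocytes it had 0 UMIs in Control, so its level was at least 159-fold higher in cycling progenitors there, counted against a floor of 3 UMIs.

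Hist1h1c, which encodes H1.2, differed from both. It held 320 CPM in Control and 231 CPM in TBI cycling progenitors, 203 and 187 CPM in neuroblasts and immature neurons, and 237 and 283 CPM in oligodendrocytes. The ratio of cycling progenitors to oligodendrocytes was 1.35 in Control (1.24 to 1.47) and 0.817 in TBI (0.743 to 0.897), so its direction differed between the libraries. After thinning, 33.5% of cycling progenitors and 25.1% of oligodendrocytes had a UMI of Hist1h1c, and 70.4% and 46.6% without thinning. Hist1h1e, which encodes H1.4, was intermediate, with 400 CPM in Control and 284 in TBI cycling progenitors and 41.6 and 37.5 CPM in oligodendrocytes. Its reads over the 450 bases shared with Hist1h2be could not be told apart.

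Among the H2A genes, Hist1h2ae reached 698 CPM in Control and 403 CPM in TBI cycling progenitors against 0.529 and 0.810 CPM in oligodendrocytes. Hist1h2ap reached 296 and 202 CPM, and Hist1h2ab 99.8 and 63.2 CPM. Most UMIs of these genes came from cycling progenitors, with 88.2% for Hist1h2ae, 89.1% for Hist1h2ap and 94.2% for Hist1h2ab. Of the UMIs of all genes except Malat1, cycling progenitors held 9.87%. Hist3h2a, with 9.30% of its UMIs in cycling progenitors, lay near that share of all genes. It held 199 CPM in Control and 145 in TBI cycling progenitors but 468 and 439 CPM in neuroblasts and immature neurons. The ratio of cycling progenitors to neuroblasts was 0.425 in Control (0.388 to 0.465) and 0.330 in TBI (0.295 to 0.369), whereas the ratio to oligodendrocytes was 3.47 and 2.72 and that to RG-like cells 2.75 and 2.13. Hist1h2ac, with 18.7% of its UMIs in cycling progenitors, held 38.1 and 29.0 CPM in cycling progenitors and 32.1 and 36.9 CPM in neuroblasts and immature neurons.

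H2B was the class in which widely counted genes led. Hist1h2bc, the most counted of all members with 19229 UMIs, held 378 CPM in Control and 266 CPM in TBI cycling progenitors. It held 415 and 473 CPM in neuroblasts and immature neurons, 343 and 376 in oligodendrocytes, and 433 and 503 in astrocytes. In Control its level in cycling progenitors lay between those of oligodendrocytes and neuroblasts, and in TBI it lay below both. Endothelial cells held 212 CPM of Hist1h2bc in Control and 178 CPM in TBI. Hist3h2ba, with 14545 UMIs, was highest in neuroblasts and immature neurons, at 663 CPM in Control and 662 CPM in TBI, against 288 and 266 CPM in cycling progenitors, 125 and 140 in oligodendrocytes, and 17.7 and 29.97 in astrocytes. After thinning, a UMI of Hist3h2ba was present in 68.5% of neuroblasts and immature neurons, 37.4% of cycling progenitors and 18.3% of oligodendrocytes, and without thinning in 95.3%, 79.2% and 52.0%. The adjacent Hist3 genes Hist3h2a and Hist3h2ba (chr11:58954685-58956830 and chr11:58948920-58949533) were thus both higher in neuroblasts than in any other named population. Of the H2B genes counted mainly in cycling cells, Hist1h2bj held 35.7 and 19.6 CPM there and Hist2h2bb 31.9 and 17.9 CPM.

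The H3 genes were the least counted class. Hist1h3c led it in cycling progenitors with 72.1 CPM in Control and 42.7 CPM in TBI, and 93.6% of its UMIs lay there. Hist1h3e, at 67.6 and 39.7 CPM, shared 71.4% of the stretches of its 3′ end with Hist1h3f, at 21.1 and 13.2 CPM, so the split between this pair is uncertain. Hist1h3i held 26.7 and 17.9 CPM. Hist2h3c1 and Hist2h3c2 had 81.3% and 78.8% of their UMIs outside cycling progenitors and RG-like cells. All genes except Malat1 had 52975585 UMIs, 5227227 in cycling progenitors and 3073384 in RG-like cells. Most UMIs of all genes thus also lay outside both, and these shares show no excess there. Hist2h3c1 was measured at 10.4 CPM in Control and 5.55 CPM in TBI cycling progenitors and at 15.2 and 11.7 CPM in astrocytes.

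Among the H4 genes, whose protein products are the same, Hist1h4d led in cycling progenitors with 286 CPM in Control and 152 CPM in TBI. It was 16.9-fold higher there than in oligodendrocytes in Control (13.7 to 21.1) and 14.0-fold in TBI (11.1 to 17.7). Hist1h4i followed with 52.0 and 43.5 CPM, and its level in neuroblasts and immature neurons was close to that, at 46.2 and 47.9 CPM. Hist1h4h held 48.5 and 23.9 CPM in cycling progenitors and 25.9 and 21.5 CPM in oligodendrocytes, and Hist1h4c 17.7 and 5.55 CPM in cycling progenitors. Hist1h4j and Hist2h4 had 85.9% and 83.9% of their UMIs outside cycling progenitors and RG-like cells, at levels of at most 7.68 CPM in cycling progenitors. Most UMIs of all genes also lay outside both populations, as given for the H3 genes.

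Where a gene's UMIs lay was next set beside its annotated transcript end, a property that took no part in the choice of genes but can bear on which reads were counted. Over all UMIs of all members of a kind, cycling progenitors held 69.1% for the 22 genes whose transcripts end under 100 bases past the stem-loop. They held 22.5% for the 24 grouped as extending 100 bases or more past it. They held 90.6% for the 15 with under 30 bases of 3′ untranslated sequence annotated, and 11.3% for the 6 others. Among the 24, Hist1h2bp ended 38 bases past the stem-loop. It was placed there for another transcript, with 150 bases of untranslated sequence and no stem-loop match. Single genes weigh heavily in these pooled shares. Hist1h2bc gave most of the 20513 UMIs of the 6 others. Of the 5172 UMIs of the 15 genes, Hist1h1b gave 2347 in Control and 1504 in TBI cycling progenitors. The medians that follow are a description of the 38 genes that passed a filter, through whichever cells counted them most, and they leave out the genes with few UMIs, keeping 10 of the 22 that end near the stem-loop. Among genes with at least 100 UMIs, the median share of a gene's UMIs that lay in cycling progenitors was 76.4% for 10 genes whose transcripts end under 100 bases past the stem-loop. It was 86.2% for 5 genes with under 30 bases of 3′ untranslated sequence annotated, which include Hist1h1b. It was 18.7% for 19 genes whose transcripts extend 100 bases or more past the stem-loop, with a range from 8.33% to 88.2%. The remaining 4 genes, with no stem-loop match in their untranslated sequence, ranged from 8.91% (Hist1h2bc) to 87.2% (Hist1h1a). The groups overlapped: Hist1h4h ended near the stem-loop with 19.3% of its UMIs in cycling progenitors, and Hist1h2ae extended 151 bases past it with 88.2%. The extended transcripts gave 62.8% of all UMIs of the histone cluster genes and those ending near the stem-loop gave 5.83%. A library primed on poly(A) counts the tailed part of a gene's RNA, so these values are levels of captured RNA and the part without a tail was not measured. Reads past a gene's annotated end are not counted for it, so tailed RNA that runs on can be missed for genes annotated as short. How far this shaped the shares was not tested. The ends are those of GENCODE M21, which can differ from the reference used for counting.

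**Figure D3:**
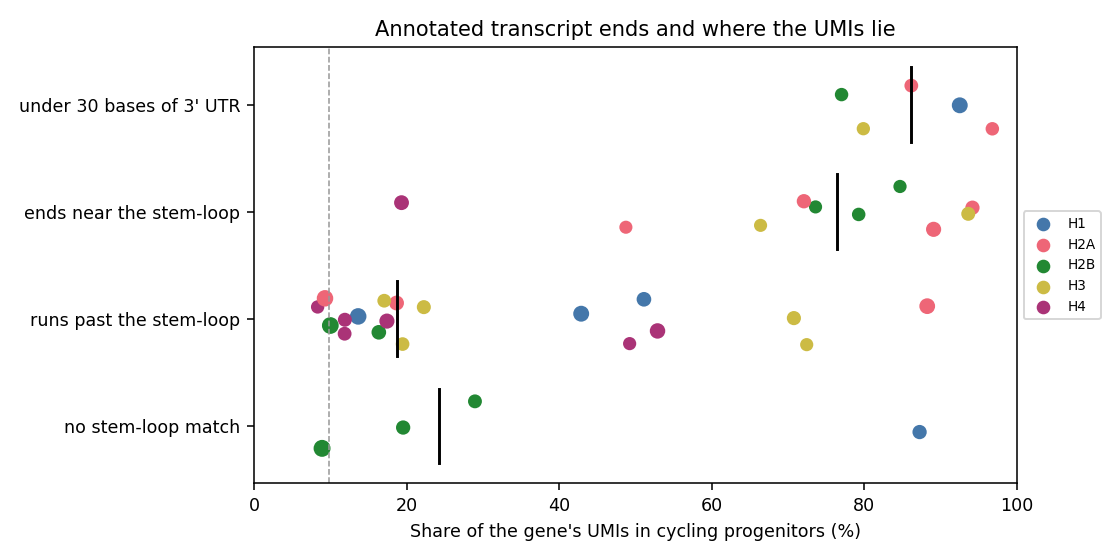
Share of each gene's UMIs that lay in cycling progenitors (x axis, %) for the 38 histone cluster genes with 100 or more UMIs. Rows give the annotated transcript end, larger points more UMIs and colours the histone class. A black bar marks the median of each row and a dashed line 9.87%, the share of the UMIs of all genes except Malat1. Medians are 86.2% and 76.4% in the upper rows and 18.7% where transcripts run past the stem-loop, with single genes of each row overlapping the others.

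The 2 clusters named cycling progenitors and the unnamed cluster nearest to them differed in which members they held. Hist1h1b went from 928 CPM in the cluster richest in S-phase genes, led by Pclaf and Uhrf1, to 462 CPM in the cluster richest in G2M genes, led by Hmmr and Cdc20, and to 40.4 CPM in the unnamed cluster, all over both libraries. Hist1h2ae followed the same order with 634, 468 and 27.1 CPM. Hist1h2bc ran the other way with 220, 482 and 944 CPM, as did Hist1h1c with 220, 366 and 503 CPM, Hist3h2ba with 215, 368 and 387 CPM and Hist3h2a with 134, 233 and 235 CPM. In the unnamed cluster Hist1h2bc exceeded the level of cycling progenitors in each library, where the ratio of cycling progenitors to that cluster was 0.360 in Control (0.330 to 0.393) and 0.312 in TBI (0.281 to 0.345).

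Cycling progenitors were also ranked in each library by their S-phase share, the UMIs of 39 S-phase genes as a percentage of those and of 51 G2M genes, none of them a histone gene, and divided into 4 parts of near equal size. The summed level of the histone cluster genes was highest in the middle of this range. In Control it was 2940 CPM in the lowest part, 7241 in the second, 7556 in the third and 1053 in the highest. In TBI it was 2043, 6299, 4013 and 719 CPM. The highest part, above 47.3% S-phase share in Control and 53.1% in TBI, thus held the fewest histone UMIs, and its Mki67 level was also the lowest, at 179 CPM in Control and 168 CPM in TBI, against 1127 and 1203 CPM in the lowest part. The ratio of the highest to the lowest part was 0.358 in Control (0.328 to 0.391) and 0.352 in TBI (0.314 to 0.394). When the cycling cells were chosen by their UMIs of Mki67 and Top2a, 83 Control and 87 TBI cells were kept, against 158 and 183 by cluster. The ratio of the highest to the lowest part then turned to 1.57 in Control and 2.13 in TBI. In Control it was 0.975 (0.921 to 1.03) without the filter on RNA content and 1.06 (1.00 to 1.12) with the unnamed cluster counted in, so the Control difference between these parts depended on which cells were taken, while in TBI these settings gave 0.433 and 0.539. The parts are ranges of a score and not cell types, and between 5 and 21 cells lay within 2 percentage points of each cut.

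Of 47 members with at least 20 UMIs in cycling progenitors, 0 had their highest level in the part with the highest S-phase share in either library. The part with the highest level was found for the members only, so no share of all genes stands beside these counts. They hold for cycling cells named by cluster, and the ratio of the parts turned under another choice, as given above. In both libraries 17 were highest in the second part, and 16 were highest in the third part in Control and in the second in TBI. Hist1h1b went from 206 CPM in the lowest part in Control to 1058, 1711 and 215 CPM, and in TBI from 128 to 1276, 898 and 139 CPM. Hist1h2ae went from 266 to 1180, 1198 and 57.0 CPM in Control and from 25.5 to 945, 509 and 33.9 CPM in TBI. Hist1h2bc held 497, 559, 334 and 55.4 CPM in Control and 432, 321, 275 and 55.9 CPM in TBI. Its level was highest in the second part in Control and in the lowest part, where G2M genes dominate, in TBI.

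**Figure D4:**
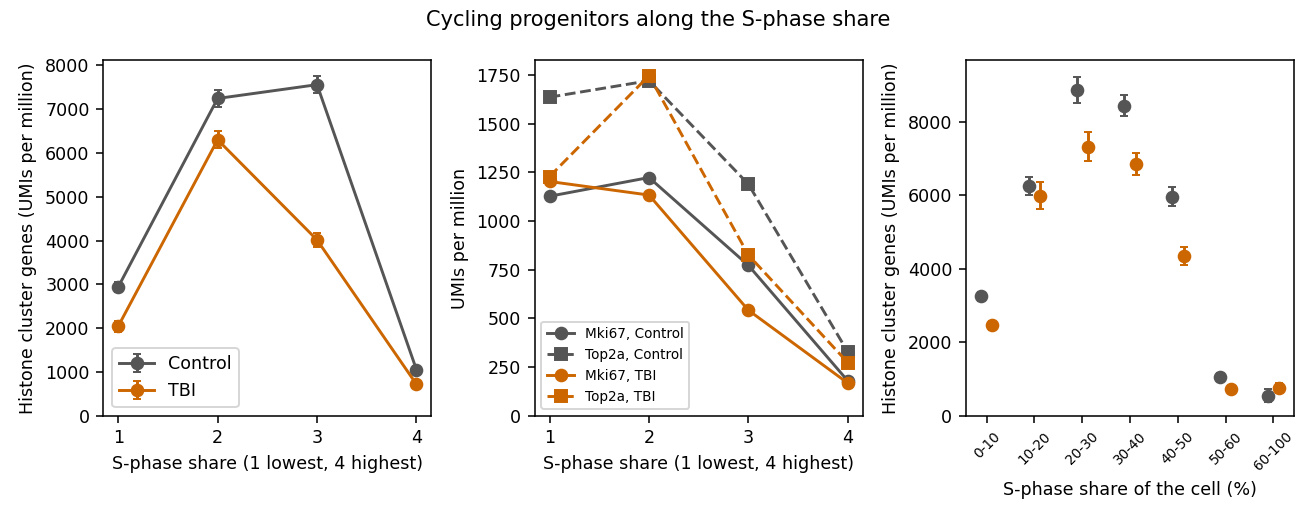
Left, summed level of the histone cluster genes in parts of cycling progenitors ranked by S-phase share within each library; middle, Mki67 and Top2a in the same parts; right, the summed level in fixed ranges of S-phase share (%), all in CPM with 95% Poisson intervals on the histone sums. The sums peak in the middle parts, at 7556 CPM in Control and 6299 CPM in TBI, and fall to 1053 and 719 CPM in the highest part.

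Between the libraries, the histone cluster genes of cycling progenitors were lower in TBI than in Control. The summed level was 4838 CPM in Control and 3376 CPM in TBI, a ratio of 0.698 (0.679 to 0.717). By class, the ratio was 0.572 for H4 (0.518 to 0.632), 0.625 for H2A (0.594 to 0.658), 0.680 for H3 (0.601 to 0.769), 0.761 for H1 (0.727 to 0.796) and 0.770 for H2B (0.723 to 0.820). All 5 classes were thus lower in TBI, and the intervals of H4 and H2A did not reach those of H1 and H2B. In the other populations described here, Reln neurons apart, the sum was nearer to equal, with ratios of 0.986 in neuroblasts and immature neurons (0.964 to 1.01), 0.910 in RG-like cells (0.843 to 0.982), 1.09 in oligodendrocytes (1.05 to 1.13) and 1.10 in astrocytes (1.03 to 1.17). Reln neurons, at 206 UMIs in Control and 230 in TBI, had a ratio of 0.720 (0.594 to 0.873).

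Of 47 members with at least 20 UMIs in cycling progenitors, 20 (42.6%) were at least 1.5-fold lower in TBI, where 3.84% of all 10674 genes so tested were. Of the same members 0 were 1.5-fold higher, where 6.74% of all genes were. With cells thinned to 2000 UMIs 10 members were at least 1.5-fold lower. Fewer genes could be tested at that depth, and no share of all genes stands beside that count. Of the 47 members, 41 had a ratio under 1, against 45.9% of all genes, and the median log2 ratio was -0.50 for the members and 0.03 for all genes. The counting interval excluded 1 for 25 members, each of them lower in TBI. This count was not made for all genes, so it has no share to stand beside. The members share the same cells, so their number is not a number of replicates. In neuroblasts and immature neurons 2 of 27 members were at least 1.5-fold higher in TBI (3.43% of all genes) and 3 at least 1.5-fold lower (3.58%).

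The lowest ratios were those of Hist1h4c, at 17.7 CPM in Control and 5.55 in TBI (ratio 0.314, 0.157 to 0.586), Hist1h2br, at 22.9 and 8.54 CPM (0.373, 0.214 to 0.623), and Hist1h3b, at 6.93 and 2.99 CPM (0.431, 0.154 to 1.06). The highest were those of Hist1h3g, at 4.85 and 6.83 CPM (1.41, 0.644 to 3.11), Hist4h4, at 5.55 and 7.26 CPM (1.31, 0.622 to 2.77), and Hist1h3d, at 13.9 and 16.6 CPM (1.20, 0.752 to 1.91). All intervals of the highest members and that of Hist1h3b included 1. Among the most counted members the ratio was 0.577 for Hist1h2ae (0.533 to 0.624), 0.531 for Hist1h4d (0.467 to 0.602), 0.789 for Hist1h1b (0.739 to 0.842), 0.705 for Hist1h2bc (0.638 to 0.779) and 0.921 for Hist3h2ba (0.828 to 1.02). Hist1h2br was also lower in TBI neuroblasts and immature neurons (0.383, 0.260 to 0.558), and shared 78.1% of the stretches of its 3′ end with other genes.

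**Figure D5:**
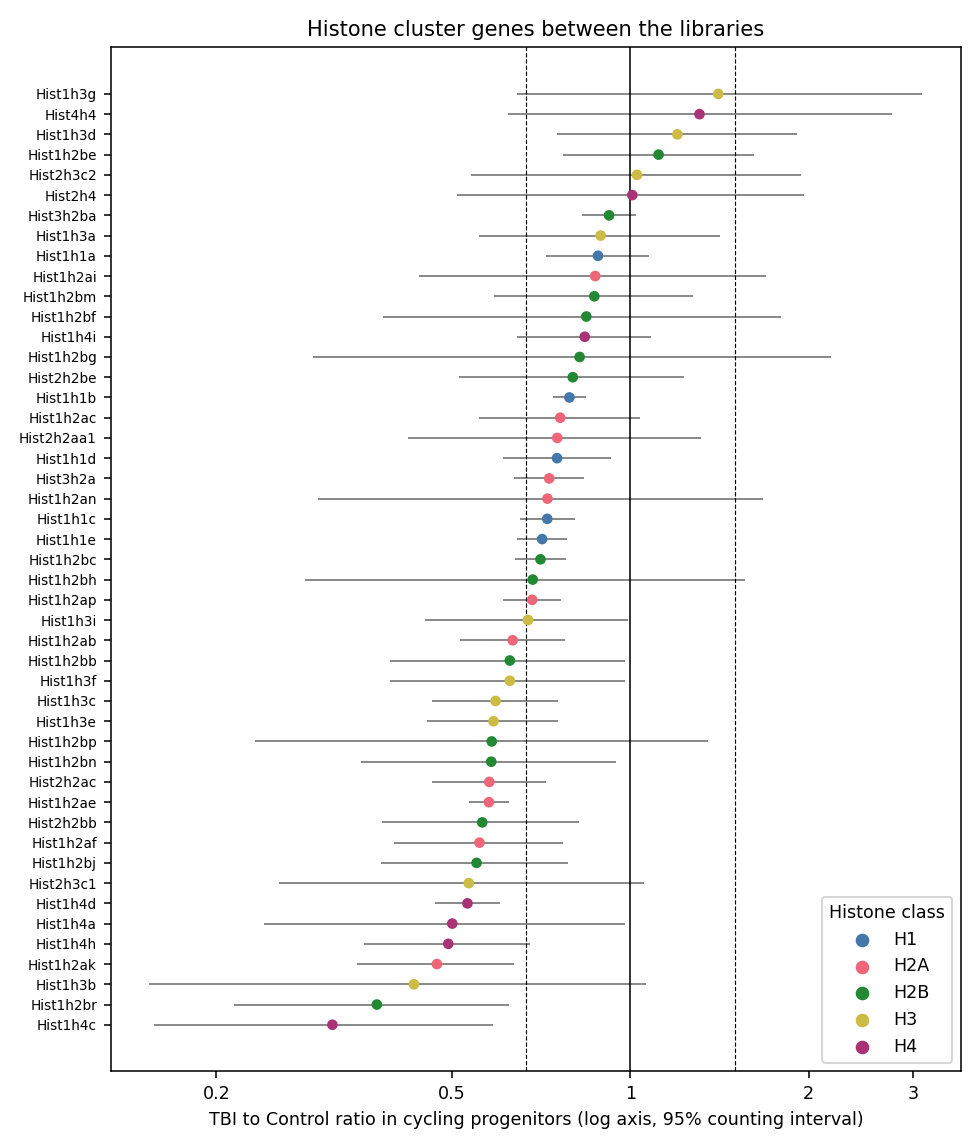
TBI to Control ratio in cycling progenitors (x axis, log scale) for the 47 histone cluster genes with at least 20 UMIs there, points coloured by histone class and lines giving 95% counting intervals; the solid line marks equality and the dashed lines 1.5-fold differences. Of the 47 points 41 lie below 1, and none reaches the upper dashed line.

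The cycling cells of the libraries differed in more than the histone genes. All 8 oligodendrocyte markers were higher in TBI cycling progenitors, with a sum of 138 CPM in Control and 879 CPM in TBI, against 67574 and 72924 CPM in oligodendrocytes themselves. Of 8 mural markers 7 were higher in TBI, with sums of 10.7 and 111 CPM and with Des and Col1a2 at 0 in Control and Acta2 at 0 in TBI. Of 8 markers of oligodendrocyte precursors 7 were higher in TBI, with sums of 9.01 and 73.0 CPM and with Pdgfra at 0 in Control and Neu4 at 0 in TBI. Of 8 RG-like markers 2 were higher in TBI, with sums of 4062 CPM in Control and 3636 CPM in TBI. Hes5, 1 of these markers, was at 469 CPM in Control and 216 CPM in TBI. Of 10 cycling markers 1 was higher in TBI, with sums of 6240 and 5396 CPM. Of the remaining lists, 10 of 14 neuroblast, 5 of 8 microglial, 4 of 6 endothelial and 4 of 6 Reln neuron markers were higher in TBI. So were 4 of 10 astrocyte markers and 0 of 4 red blood cell genes. Of all genes with at least 20 UMIs in cycling progenitors, 45.9% had a ratio under 1. In RG-like cells the oligodendrocyte markers summed to 179 CPM in Control and 635 in TBI, and the mural markers to 18.8 and 140. In cycling progenitors the G2M genes summed to 20945 and 18319 CPM and the S-phase genes to 5952 and 5948 CPM. The oligodendrocyte, mural and oligodendrocyte precursor lists together made over 0.1% of the UMIs in 0 of 158 Control and 6 of 183 TBI cells. Without those cells the histone ratio was 0.707 (0.688 to 0.727) and 21 members were at least 1.5-fold lower in TBI. Without called doublets it was 0.700 (0.681 to 0.720). Their median depth was 19109 UMIs in Control and 12867 in TBI, and their median S-phase share was 29.8% in Control and 34.3% in TBI. Cells with over 0.5% of their UMIs from histone cluster genes made up 73 of 158 Control cells (46.2%) and 56 of 183 TBI cells (30.6%). In fixed ranges of S-phase share the ratio was 0.760 under 10% (0.714 to 0.808), 0.956 from 10 to 20% (0.890 to 1.03), 0.825 from 20 to 30% (0.771 to 0.882), 0.811 from 30 to 40% (0.768 to 0.856), 0.730 from 40 to 50% (0.681 to 0.783) and 0.696 from 50 to 60% (0.612 to 0.793). Above 60%, with 6 Control and 14 TBI cells, it was 1.40 (0.965 to 2.08), and the ranges from 10 to 30% also held few cells, between 13 and 21 in each library. Weighting the 6 ranges up to 60% alike in both libraries gave a ratio of 0.807, nearer to 1 than 0.698. The unnamed cluster had a ratio of 0.848 (0.803 to 0.895). With 1 library per group, condition, pool of animals, depth and library cannot be told apart.

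Histone genes outside the clusters and genes that supply histones were measured in the same cells. Replacement histones are mostly polyadenylated and used throughout the cell cycle, but the transcript ends of the genes listed here were not examined. Of 10 such genes, 6 were at least 4-fold higher in cycling progenitors than in oligodendrocytes in both libraries, where 15.1% of all genes tested were, among them H2afz (4362 CPM in Control and 4207 CPM in TBI cycling progenitors) and H2afx (803 and 667 CPM). H3f3a, a replacement H3, was 2.62-fold higher in Control and 2.35-fold in TBI, and H2afj was lower in cycling progenitors, at 137 CPM in each library against 662 and 708 CPM in oligodendrocytes. Of 18 histone supply genes 17 were counted often enough, and 11 were at least 4-fold higher in cycling progenitors, against the same 15.1% of all genes. Some passed the count limit through cycling cells, such as Ccne1, at 0 CPM in Control and 0.116 CPM in TBI oligodendrocytes. Their call was largely fixed by the limit, so this count is a description only. Slbp, which encodes the stem-loop binding protein, held 287 CPM in Control and 268 in TBI, and Nasp, a histone chaperone, 843 and 867 CPM. Npat, the coactivator of histone genes at histone locus bodies, was lower in cycling progenitors than in oligodendrocytes, at 41.6 and 44.4 CPM against 95.5 and 81.6 CPM. Between the libraries, 0 of the 10 replacement histones and 0 of 17 supply genes differed by 1.5-fold in cycling progenitors, where 6.74% of all genes were higher and 3.84% lower. Of these, 8 of 10 and 10 of 17 were below 1, against 45.9% of all genes. At such list sizes a count of 0 lies near the share of all genes, and no difference from the histone cluster genes was tested.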

How the data were processed

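Single cells of 2 pooled libraries were analysed, 1 Control and 1 TBI. The deposited tables hold whole-number counts of UMIs per gene and barcode, made by the authors with Cell Ranger 3.0.2 (version from the submitters' processing notes) on GRCm38/mm10 and not normalized. Cell Ranger counts reads that map to 1 gene, which can leave out reads in copies of histone genes. The gene and barcode tables that the authors deposited hold names and no measurement. Tables were assigned to conditions by barcodes that the study lists (356 of 356 Control and 320 of 320 TBI barcodes found in the matching table, 0 in the other). Of 3086 Control and 5081 TBI barcodes (24723113 and 31543330 UMIs), a barcode was kept when it had at least 200 genes and its log UMI total lay no more than 3 scaled median absolute deviations from its library's centre. The libraries shared 3 barcodes. Doublets called with Scrublet in scanpy 1.11.5 (38 Control and 110 TBI cells) were kept, 4 of them among cycling progenitors.

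Clustering followed the study's settings in R 4.3.3 with Seurat 5.3.0 (canonical correlation analysis on 20 dimensions, 2000 variable genes, 20 principal components, resolution 3.0), without Malat1 and the histone cluster genes. Clusters took the name of the type with the highest mean standardized marker level, so names are rebuilt and not the authors' own. A cluster stayed unnamed when too few markers were detected or when markers of another type led. The same held at low depth without a marker among its leading genes. Of 41 clusters 7 stayed unnamed, with 711 cells that entered no named population. Sums of UMIs have exact Poisson intervals, ratios exact conditional binomial intervals and shares exact binomial intervals, all 95%. Ratio calls used a floor of 3 UMIs, and the intervals were tested on simulated data. Genes were named by rule: per class up to 4 with the highest level in cycling progenitors and up to 2 with the largest share elsewhere among genes with at least 100 UMIs, and the 3 lowest and 3 highest ratios of TBI to Control. Further genes were named for their sequence. The members and lists were chosen with earlier results of these data known. Python 3.11.15, numpy 2.4.6, scipy 1.17.1, pandas 2.3.3 and matplotlib 3.10.9 were used.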

Additional observations from a re-analysis of the deposited data

Results flagged for a closer look

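The TBI to Control ratio of the summed histone cluster genes pointed in opposite directions between populations, at 0.698 in cycling progenitors, 1.09 in oligodendrocytes and 1.10 in astrocytes. The counting interval of each ratio excluded 1, but the difference between the populations was not tested, since each condition was 1 library. Hist1h2bc, an H2B gene, did the same, at 0.705 in cycling progenitors, 1.14 in neuroblasts and immature neurons, 1.10 in oligodendrocytes and 1.16 in astrocytes. Hist1h1c, which encodes H1.2, had a ratio of 0.724 in cycling progenitors and 1.20 in oligodendrocytes. These differences were not tested either.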

How the results depend on the processing

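Of 91 values under other settings, 57 did not move, 31 moved and 3 turned direction, where a count was taken as moved past 1.5 times and a level or ratio outside its counting interval. Within that limit the members with at least 10 UMIs went from 57 to 43 thinned, and the 28 members higher than in oligodendrocytes to 37 at a minimum of 10 UMIs. The cause was not tested except where the setting itself shows it. The count of members at least 1.5-fold higher in TBI cycling progenitors stayed 0 under every setting tried. The summed level in cycling progenitors (4838 CPM in Control, 3376 in TBI) was 4494 and 3165 without the filter on RNA content. It was 5910 and 4564 in cells chosen by UMIs of Mki67 and Top2a, and 4004 and 2832 with histone genes allowed in clustering. With cells thinned to 2000 UMIs it was 4653 and 3478. With Malat1 in the total the Control level was 4739. The TBI to Control ratio (0.698) was 0.772 in Mki67 and Top2a cells and 0.747 thinned. The 28 members at least 4-fold higher than in oligodendrocytes became 7 thinned and 17 at a minimum of 50 UMIs, both of which leave fewer genes tested, and the 20 lower in TBI became 10 thinned. The ratio of the highest to the lowest part by S-phase share (0.358 in Control, 0.352 in TBI) was 0.975 and 0.433 without the filter, 0.438 and 0.288 without cells over 10% mitochondrial UMIs, 0.495 and 0.441 thinned, and 0.667 and 0.278 with 3 parts. It was 0.317 in Control with histone genes in clustering, and turned to 1.57 and 2.13 in Mki67 and Top2a cells. The remaining settings, and the one that leaves out cycling cells with markers of other types, which moved no value, were chosen after seeing the data. With the unnamed cluster added, the levels were 4395 and 3109 CPM and the ratio of the parts was 1.06 in Control, which turned its direction, and 0.539 in TBI. In the S-phase cluster alone the Control level was 5087 CPM and the TBI to Control ratio 0.659, in the G2M cluster alone 4529 CPM and 0.755, and over 6 fixed ranges of S-phase share the ratio was 0.807. No paired analysis was possible because each condition was 1 pooled library. Low counts limit the H3 genes and the levels in microglia, oligodendrocyte precursors and Reln neurons most.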
